A study of Mus musculus with 10 samples.

Results

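Expression of 10 genes of the bone morphogenetic protein (BMP) pathway was examined in 10 mouse mammary carcinomas. The genes were the ligands Bmp7, Bmp2 and Bmp4, the receptor Bmpr1a, the secreted antagonists Grem1 and Nog, and the target genes Id1, Id2, Id3 and Smad6. They were chosen by name, with earlier results of these data known. Every non-control probe that the array assigned to 1 of these genes was taken, which gave 14 of the 40196 probes tested, for 10 of the 19272 named genes. Bmp7, Bmpr1a, Id1 and Id2 had 2 probes each, and each of the remaining genes had 1.

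BMPs are secreted ligands of the TGF-beta superfamily. They bind pairs of serine/threonine kinase receptors, which phosphorylate Smad1, Smad5 and Smad9, and these enter the nucleus with Smad4. The Id genes are direct targets and encode helix-loop-helix proteins that hold back differentiation factors, while Smad6 is induced by the pathway and inhibits it. Gremlin and noggin bind BMPs outside the cell and keep them from their receptors. In the mammary gland, BMP signals take part in bud formation and in the exchange between epithelium and stroma.

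Of the 10 tumors, 5 were grouped as sarcomatoid carcinomas and 5 as adenocarcinomas. Within the sarcomatoid group, both tumors numbered 323 and both numbered 307 were labelled sarcomatoid adenocarcinoma. Tumor 594 alone was labelled sarcomatoid carcinoma. A difference between these labelled types was not tested. The adenocarcinomas (tumors 105, 131, 470, 17 and 85) were primary mammary tumors of mice that carried Pik3caH1047R, Trp53R270H and MMTV-Cre, a transgene that drives recombination in mammary epithelium. The sarcomatoid group held 3 primary mammary tumors (323, 307 and 594) and 2 lung tumors, labelled as transplanted, which carried the numbers 323 and 307. Per the study's methods, 1 of the paired primaries carried the same alleles as the adenocarcinomas, and the other carried Pik3caH1047R and MMTV-Cre with a spontaneous Trp53R245H mutation. The labels do not say which of tumors 323 and 307 is which. The remaining primary, tumor 594, came from a Trp53R270H;MMTV-Cre mouse without the Pik3ca allele. Its different label and its different genotype fall on the same tumor and cannot be told apart. Each lung tumor grew after tail vein injection of a cell line made from its primary tumor, so the 5 sarcomatoid arrays stand for 3 origins. The compound mutant mice were on a C57BL/6 background.

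Each array set the RNA of 1 tumor against a common reference, and a value is a log2 ratio of tumor over reference, comparable between arrays for the same probe only. Between 52.2% and 83.0% of the probes were well above background in the tumor channel. Tumor 470 stood apart from its group: its mean correlation across probes was 0.660 with the sarcomatoid arrays and 0.494 with the other adenocarcinomas, whereas each of those 4 correlated better with its own group. Results that rest on tumor 470 are given with and without it. Tumor 470 was singled out on these same values for its likeness to the sarcomatoid arrays. The p-values of fits without it are therefore descriptive only. The labels name the green dye for the tumor RNA, but the green signals varied less between arrays than the red ones, and red was read as the tumor. This direction is likely but not settled, and if the label is right every sign below turns. With red as the tumor, Krt18 (-3.32), Epcam (-2.86) and Dsp (-3.53) had lower means in the sarcomatoid carcinomas. Mrc1 (1.71) and Itgam (1.61) had higher ones. The study reports the same directions for these genes from these tumors.

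No member passed an adjusted p of 0.05 between sarcomatoid carcinomas and adenocarcinomas, as was the case for all 40196 probes (limma, 0 called, 0%). At an unadjusted p under 0.05, 3 of the 14 member probes were lower in the sarcomatoid carcinomas, both Bmp7 probes and the Smad6 probe, and 0 were higher. The Bmp7 probes correlated at r = 0.999, so this count takes that gene by 2 probes. By 1 probe per gene, 2 of the 10 genes were lower. Over all probes 9.23% passed this threshold, 4.25% in the lower direction. Without tumor 470 the count of member probes was 6, namely both probes of Bmp7 and of Id2, the Bmp2 probe and the Smad6 probe, against 14.2% of all probes in that fit. On 0 of the 14 member probes were the 5 sarcomatoid arrays separated from the 5 adenocarcinomas, against 1.33% of all probes. The median difference over the 10 genes was -0.05 on the log2 scale, beside 0 over all probes.

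**Figure D1:**
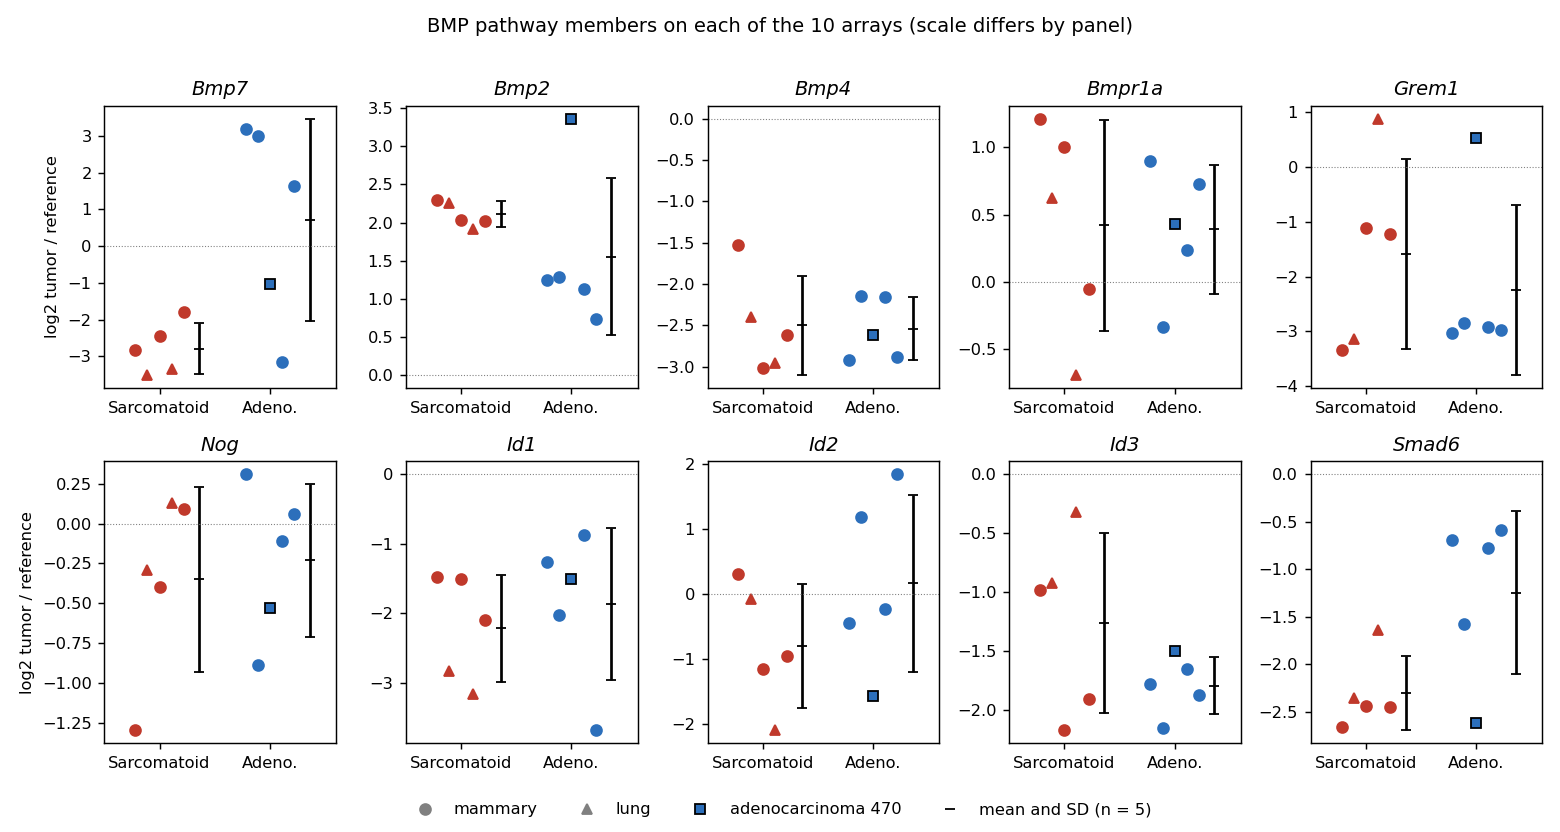
Log2 ratio of tumor over reference (y axis) for the 10 members, 1 probe per gene, in the 5 sarcomatoid carcinomas (red; triangles mark lung tumors) and the 5 adenocarcinomas (blue; the square marks tumor 470), with the mean and SD of each group beside the points. For Bmp7, 3 adenocarcinomas lie between 1.63 and 3.19 and the other 2 lie at -1.04 and -3.16, near the sarcomatoid arrays.

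The ligand Bmp7, known for opposing the epithelial-mesenchymal transition in epithelia, had the largest difference among the members. By its first probe (chr2:172614090-172614149 of mm7, minus strand) its log2 ratio was -2.82 in tumor 323, -3.51 in its lung tumor, -2.45 in tumor 307, -3.35 in its lung tumor and -1.80 in tumor 594. The adenocarcinomas gave 3.19 (105), 3.0 (131), -1.04 (470), -3.16 (17) and 1.63 (85). The groups overlapped, since tumor 17 lay among the sarcomatoid values while tumors 105, 131 and 85 were far above all of them. The sarcomatoid mean of -2.79 ± 0.70 (SD, n = 5) was set against 0.72 ± 2.75 (SD, n = 5) in the adenocarcinomas. The difference on the log2 scale was -3.51 with a 95% confidence interval of -5.83 to -1.20, or 11.4-fold lower (limma, adjusted p = 0.386). An exact permutation test over the 10 arrays, two-sided, gave p = 0.0317. With 1 value for each tumor number, 3 against 5, the exact p was 0.0893, where 0.0179 is the smallest this design allows. The study names Bmp7 among its genes from these same tumors, so its direction here is not independent evidence.

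The second Bmp7 probe, printed as 10 spots on each array, gave the same order of tumors apart from near neighbours and correlated with the first at r = 0.999 over the 10 arrays, which share their RNA. Its difference was -3.62 (95% confidence interval -6.01 to -1.23, adjusted p = 0.386). In the scan batches that held both groups, the first probe's difference was -3.20 in batch 2 and -3.92 in batch 3. Without tumor 470 it was -3.95 (limma, adjusted p = 0.106). For the mammary sarcomatoid tumors alone it was -3.08 (adjusted p = 0.579).

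Bmp7 can be set beside the epithelial content of the tumors. All 10 genes of an epithelial list (among them Epcam, Cdh1, Krt8 and Krt18) had lower means in the sarcomatoid carcinomas, 4 at an unadjusted p under 0.05 and 0 at an adjusted one. Their mean log2 ratio ran from -2.46 to 1.74 in the sarcomatoid carcinomas and from -1.40 (470) to 3.51 (105) in the adenocarcinomas. Tumor 17, with Bmp7 at -3.16, had an epithelial level of 3.47, close to that of tumors 105, 131 and 85. The part of epithelial content in the Bmp7 difference was not tested. In bulk tumor RNA, fewer cells of a type and less RNA per cell cannot be told apart.

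**Figure D2:**
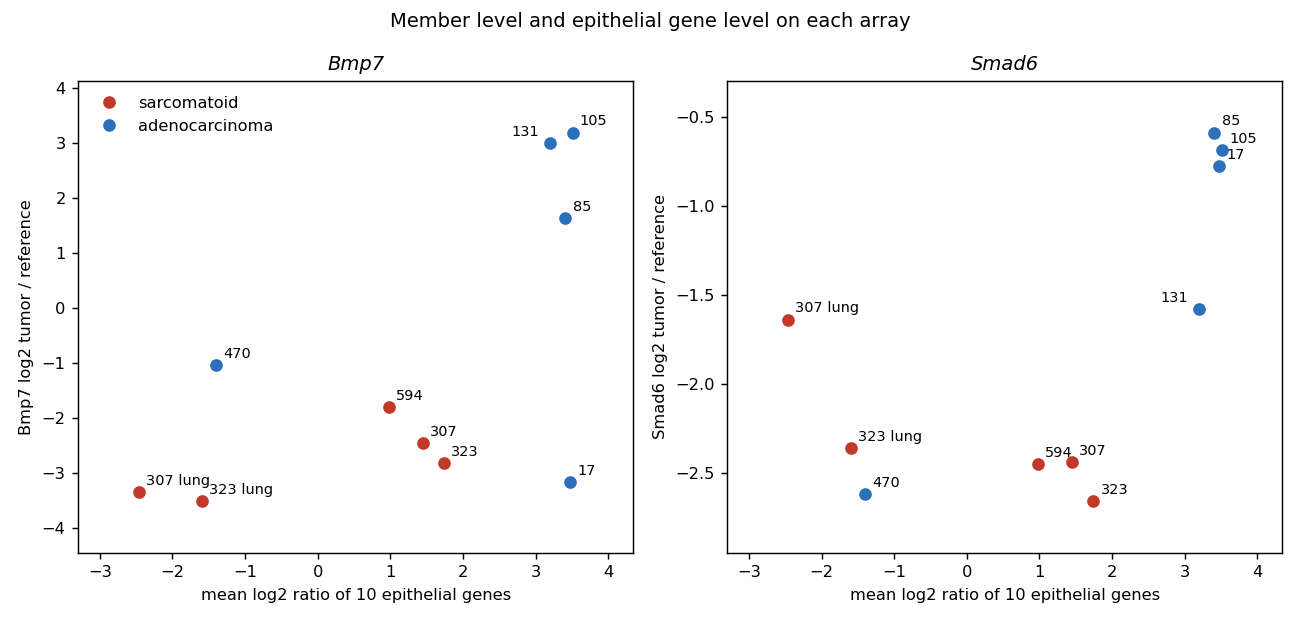
Log2 ratio of Bmp7 (left) and Smad6 (right) on the y axis against the mean log2 ratio of 10 epithelial genes on the x axis, 1 point per array, red for sarcomatoid and blue for adenocarcinoma. Tumor 17 combines a high epithelial level (3.47) with a low Bmp7 ratio (-3.16), and tumor 470 lies at an epithelial level of -1.40 with Smad6 at -2.62.

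Bmp2, another ligand of the pathway, was even across the sarcomatoid carcinomas, at 2.30 (323), 2.26 (323 lung), 2.03 (307), 1.92 (307 lung) and 2.02 (594). The adenocarcinomas gave 1.25 (105), 1.29 (131), 3.36 (470), 1.13 (17) and 0.74 (85). Tumor 470 was the highest of the 10 arrays, and the other 4 adenocarcinomas lay below all 5 sarcomatoid arrays. The difference was 0.55 (95% confidence interval -0.38 to 1.49, limma adjusted p = 0.741), and 1.0 without tumor 470 (adjusted p = 0.0679). The reference signal of this probe was well above background on 0 of 10 arrays and the tumor signal on 9, so the denominator of its ratio was dim. From the scanner files with loess normalization the difference was 0.13.

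Bmp4, a ligand made by mammary stroma, did not separate the groups. Its ratio ran from -3.01 (307) to -1.53 (323) in the sarcomatoid carcinomas, with a median of -2.61, and from -2.92 (105) to -2.14 (131) in the adenocarcinomas, with a median of -2.62. The difference was 0.04, and its 95% confidence interval of -0.66 to 0.75 leaves room for changes of either sign.

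For the type I receptor Bmpr1a the first probe ran from -0.69 (307 lung) to 1.21 (323) in the sarcomatoid carcinomas and from -0.33 (131) to 0.90 (105) in the adenocarcinomas. The difference was 0.02 by this probe (95% confidence interval -0.82 to 0.87) and -0.07 by the second (-0.77 to 0.62). The probes of this gene followed each other less closely than those of Bmp7, Id1 or Id2, with r = 0.526 over the 10 arrays and values up to 0.81 apart on the log2 scale.

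The antagonist Grem1 varied strongly within each group (probe at chr2:113599308-113599367 of mm7, minus strand). Its ratio was -3.35 in tumor 323, -3.14 in its lung tumor, -1.11 in tumor 307, 0.88 in its lung tumor and -1.23 in tumor 594. In the adenocarcinomas it was -3.03 (105), -2.84 (131), 0.53 (470), -2.93 (17) and -2.98 (85). Thus 4 adenocarcinomas and both tumors numbered 323 were low and close together, while both tumors numbered 307, tumor 594 and tumor 470 were higher. The difference between groups was 0.66 ± 0.88 (SE; limma, adjusted p = 0.870), 1.35 without tumor 470 (adjusted p = 0.445) and 0.04 without the lung tumor 307 (adjusted p = 0.991). A list of 9 fibroblast and mesenchymal genes (Col1a1, Pdgfra, Vim and others) had a mean ratio of -0.90 to 2.17 in the sarcomatoid carcinomas and -1.85 to 2.22 in the adenocarcinomas. It was highest in tumor 470 (2.22), the lung tumor 307 (2.17) and tumor 594 (1.69), 9 of its 9 genes had higher means in the sarcomatoid carcinomas, 1 at an unadjusted p under 0.05, and its part in the Grem1 values was not tested. Nog, the other antagonist, stayed between -1.30 and 0.31 on all arrays, with a difference of -0.12 (95% confidence interval -0.85 to 0.61).

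Of the targets, Smad6, the inhibitory Smad, was lower in the sarcomatoid carcinomas (probe at chr9:63982002-63982061 of mm7, minus strand). Its ratio was -2.66 (323), -2.36 (323 lung), -2.44 (307), -1.64 (307 lung) and -2.45 (594). The adenocarcinomas gave -0.69 (105), -1.58 (131), -2.62 (470), -0.78 (17) and -0.59 (85). Tumors 105, 131, 17 and 85 lay above all sarcomatoid arrays, tumor 131 by a narrow margin, and tumor 470 lay below 4 of them. The difference was -1.06 (95% confidence interval -1.93 to -0.20, limma, adjusted p = 0.453), or 2.09-fold lower. The exact permutation test gave p = 0.0635 over arrays and p = 0.107 over tumor numbers. It was -1.40 without tumor 470 (limma, adjusted p = 0.0517), -0.79 within scan batch 2 and -1.02 within batch 3. Smad6 is also known in endothelium, and of 8 endothelial genes (Pecam1, Cdh5 and others) 6 had higher means in the sarcomatoid carcinomas and 0 passed an unadjusted p of 0.05, with list means of 1.65 to 3.68 against 2.0 to 3.57.

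Marker lists of other cell types were read in the same way, and their part in the values of the members was not tested. A myeloid list (Ptprc, Itgam and others) had higher means in the sarcomatoid carcinomas for 6 of 6 genes, all 6 at an unadjusted and 0 at an adjusted p under 0.05, with list means of 2.16 to 3.33 against 0.01 to 2.66. Basal and myoepithelial genes were lower for 5 of 5 genes, 0 at an unadjusted p under 0.05 (-0.69 to 2.06 against 0.38 to 3.09). Adipocyte genes (1.0 to 4.95 against 1.64 to 6.02) and skeletal muscle genes (-1.36 to 3.05 against -1.33 to 5.36) spread widely within both groups, and 0 of them had an unadjusted p under 0.05.

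The Id genes, which encode helix-loop-helix proteins without a DNA-binding region and are described one by one. For Id1 the sarcomatoid arrays ran from -3.17 (307 lung) to -1.48 (323) and the adenocarcinomas from -3.69 (85) to -0.87 (17), with a difference of -0.35 ± 0.53 (SE; limma, adjusted p = 0.890). It was -0.80 without tumor 85 and -0.10 without tumor 17. For Id2 they ran from -2.10 (307 lung) to 0.30 (323) and from -1.57 (470) to 1.84 (85), with a difference of -0.96 ± 0.64 (SE; limma, adjusted p = 0.690). Without tumor 470 the probes of Id2 gave -1.39 and -1.29 (limma, adjusted p = 0.307 and 0.250), and without tumor 85 the first gave -0.54. For Id3 they ran from -2.17 (307) to -0.32 (307 lung) and from -2.15 (131) to -1.50 (470), with a difference of 0.53 ± 0.35 (SE; limma, adjusted p = 0.686), and 0.30 without the lung tumor 307. Tumor 85 held the lowest Id1 and the highest Id2 ratio of the 10 arrays. Over the 10 arrays the correlations were -0.24 between Id1 and Id2, -0.33 between Id1 and Id3 and -0.39 between Id2 and Id3, as a description of arrays that share the reference RNA.

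**Figure D3:**
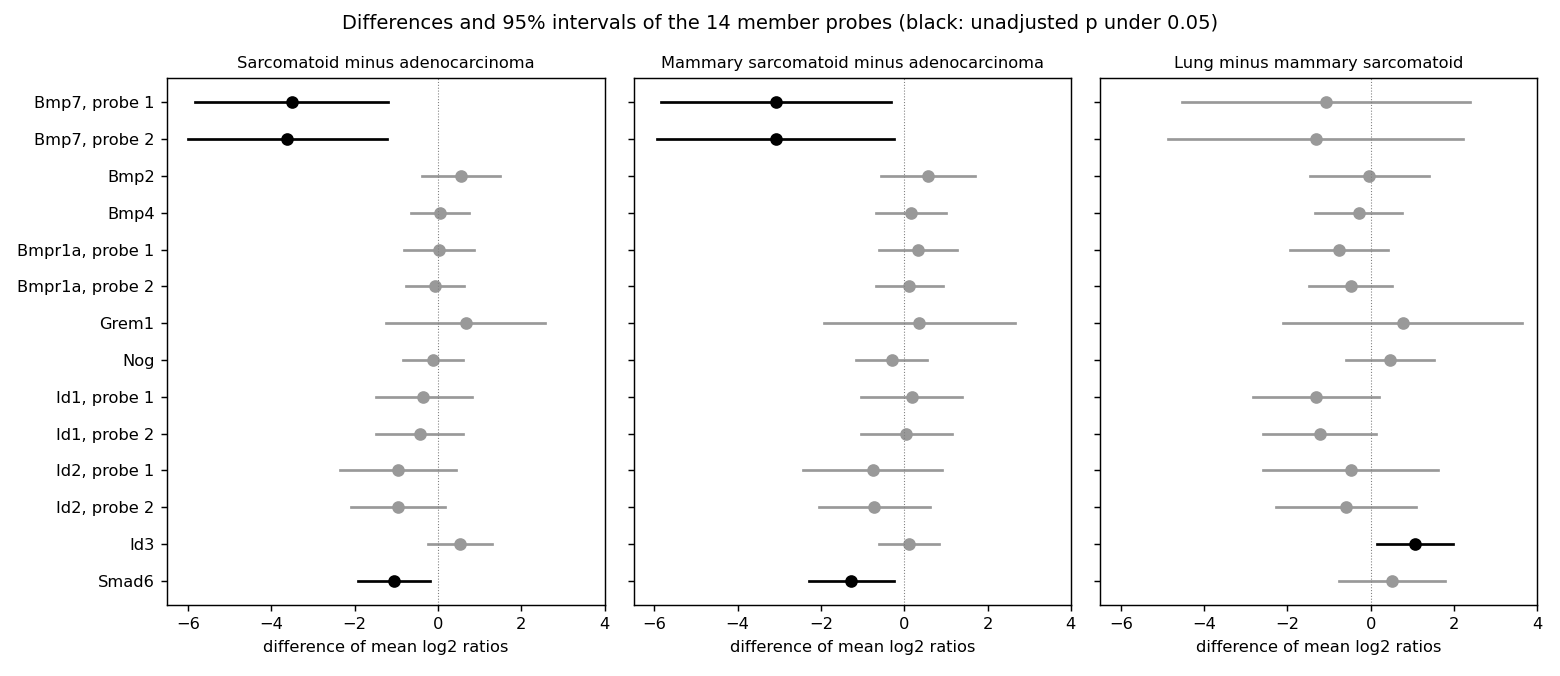
Difference of mean log2 ratios (x axis) with its 95% confidence interval for the 14 member probes (rows) in 3 comparisons, from the limma fits. Both Bmp7 probes and Smad6 lie below 0 in the first panel (-3.51, -3.62 and -1.06) and in the second (-3.08, -3.09 and -1.27), and Id3 lies above 0 in the third (1.06).

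Regulatory sequence bears on the targets, because Smads of this pathway bind GC-rich elements. Promoter windows of 300 bases were at hand from RefSeq (assembly GRCm38.p6) for Bmp4, Bmpr1a, Grem1, Id2, Id3 and Smad6, but not for Bmp7, Bmp2, Nog and Id1. The GC-rich letters GGCGCC, which read the same on both strands, occurred in the windows of Bmpr1a, Grem1 and Id2, and in 11.9% of all 32851 windows of this length. The GC content was 79.3% in Bmpr1a, 70.7% in Grem1 and 63.3% in Id2, beside 64.0% in Bmp4, 66.3% in Smad6 and 60.0% in Id3. The 11.9% was not matched for GC content. Of the targets with a window, Id2 held these letters and Id3 and Smad6 did not. The stretches of 30 bases around the matches are shown, with the 6 matching letters in capitals. All 3 lie on the minus strand, at chr14:34502727-34502756 for Bmpr1a, chr2:113758709-113758738 for Grem1 and chr12:25096306-25096335 for Id2.
Bmpr1a: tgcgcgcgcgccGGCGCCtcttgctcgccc
Grem1: cgcggcggcgacGGCGCCtgaccaatggag
Id2: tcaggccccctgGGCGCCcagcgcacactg
The match began 198 bases before the start site in Bmpr1a, 78 before it in Grem1 and 231 before it in Id2. The shorter Smad box CAGAC, searched on both strands, occurred in Grem1 and Id3 with 2 matches each and in 49.6% of all windows. Bmp4 and Smad6 held neither set of letters in this window. Among the 3 genes with GGCGCC, the correlation over the 10 arrays was -0.81 for Grem1 and Id2. It was -0.49 for Bmpr1a and Grem1 and 0.27 for Bmpr1a and Id2. The largest in size between members was -0.86, for Bmp2, which had no window, and Smad6, which held neither set of letters. A link between these correlations and the shared letters was not tested, and a match is a description of the letters only.

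The ratios of single members were compared with all other genes by their pattern over the 10 arrays. Among 13910 genes with enough signal, the highest Pearson correlation with Bmp7 was that of Lpin1 (r = 0.967), followed by Psapl1 (0.962) and Ppp1r3c (0.951). Those most like Bmp4 were Kbtbd3 (0.941), Usp15 (0.940) and Zfp51 (0.930). Those most like Grem1 were Ptprn (0.965), Sh3gl3 (0.956) and Hdgfl3 (0.930), and those most like Id1 were Zbtb26 (0.949), Oip5os1 (0.917) and Eif4a2 (0.888). Between members, Bmp2 and Smad6 correlated at -0.86 and Bmp4 and Nog at -0.78, or at -0.93 and -0.59 by ranks (Spearman). Tumor 323 held the highest Bmp4 (-1.53) and the lowest Nog (-1.30) ratio of the 10 arrays. The genes named as most like Bmp4 were also highest in tumor 323. Psapl1 had ratios of 3.93 (105), 3.50 (131) and 2.26 (85) against 0.55 (470) and -0.04 (17), the same split of the adenocarcinomas as in Bmp7. It was picked for its correlation with Bmp7 over these same arrays, so this likeness follows from the choice.

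Mammary sarcomatoid tumors alone were compared with the adenocarcinomas to set tumor type apart from site. This comparison shares its adenocarcinomas with the previous one. At an unadjusted p under 0.05, 3 of the 14 member probes passed, against 8.6% of all probes (3.76% in the lower direction), and they were again both Bmp7 probes and Smad6. Counted by 1 probe per gene, 2 of the 10 genes passed. Smad6 was -2.52 ± 0.13 (SD, n = 3) in the mammary sarcomatoid tumors and -1.25 ± 0.86 (SD, n = 5) in the adenocarcinomas, a difference of -1.27 (95% confidence interval -2.28 to -0.26, limma, adjusted p = 0.558). The count of 3 became 0 without tumor 323, and 1 without tumor 307, 105, 131 or 85. With all these arrays, the count was 1 with loess normalization of the scanner files. With scan batch as a term it was 0. Tumor 323 was the only array of batch 1, so that fit set tumors 307 and 594 against tumors 105 and 470. The arrays of the mammary sarcomatoid tumors and of the 5 adenocarcinomas were separated on 0 of the 14 probes, against 5.83% of all probes. None of the 14 probes passed an adjusted p of 0.05, and 0 of all probes did (0%). Without tumor 470, 210 probes passed (0.522%), and 0 of them were members.

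The lung tumors were then compared with the mammary sarcomatoid tumors, which asks how the members differed after transplantation of cell lines to the lung. Id1 was low in both lung tumors, at -2.83 (323 lung) and -3.17 (307 lung), against -1.48 (323), -1.51 (307) and -2.10 (594). The groups did not overlap for Id1, as on 34.3% of all probes. Each lung tumor lay below its own primary, by -1.36 for number 323 and -1.66 for number 307 on the log2 scale. The difference was -1.31 ± 0.69 (SE; limma, adjusted p = 0.529), and the second Id1 probe gave -1.22 ± 0.61 (SE; limma, adjusted p = 0.513). Id3 went the other way, at -0.92 and -0.32 in the lung tumors 323 and 307 against -0.98 (323), -2.17 (307) and -1.90 (594), a difference of 1.06 ± 0.41 (SE; limma, adjusted p = 0.408). Within pairs, Id3 differed by 0.06 for number 323 and by 1.84 for number 307, so the mean rests on the second pair.

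Bmp7 was lower in each lung tumor than in its primary, by -0.70 for number 323 and -0.90 for number 307, with a difference between sites of -1.08 (95% confidence interval -4.54 to 2.38). The mean of the epithelial list was also lower there, at -1.60 in the lung tumor 323 and -2.46 in the lung tumor 307 against 1.74 (323), 1.45 (307) and 0.98 (594), and its part in the differences between sites was not tested. Grem1 hardly differed within number 323 (0.21) and was 1.99 higher in the lung tumor of number 307. Smad6 was 0.30 and 0.80 higher in the lung tumors of these numbers. In all, lung and mammary tumors did not overlap on 7 of the 14 member probes (2 higher, 5 lower), where 34.3% of all probes showed this with 2 arrays against 3. At an unadjusted p under 0.05, 1 of the 14 passed, Id3, against 10.7% of all probes, and at an adjusted p 0 did, against 0.0249%. With tumor number as a replicate block Id3 was 0.95 (limma, adjusted p = 0.598) and 0 of the 14 passed the unadjusted threshold. Without that block, the count of 1 became 0 without tumor 307 (9.33% of all probes) or tumor 594 (9.23%), and 3 without tumor 85 (10.7%). Leaving out a lung tumor leaves 1 array at that site. Id3 was then 1.36 without the lung tumor 323 and 0.76 without the lung tumor 307.

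**Figure D4:**
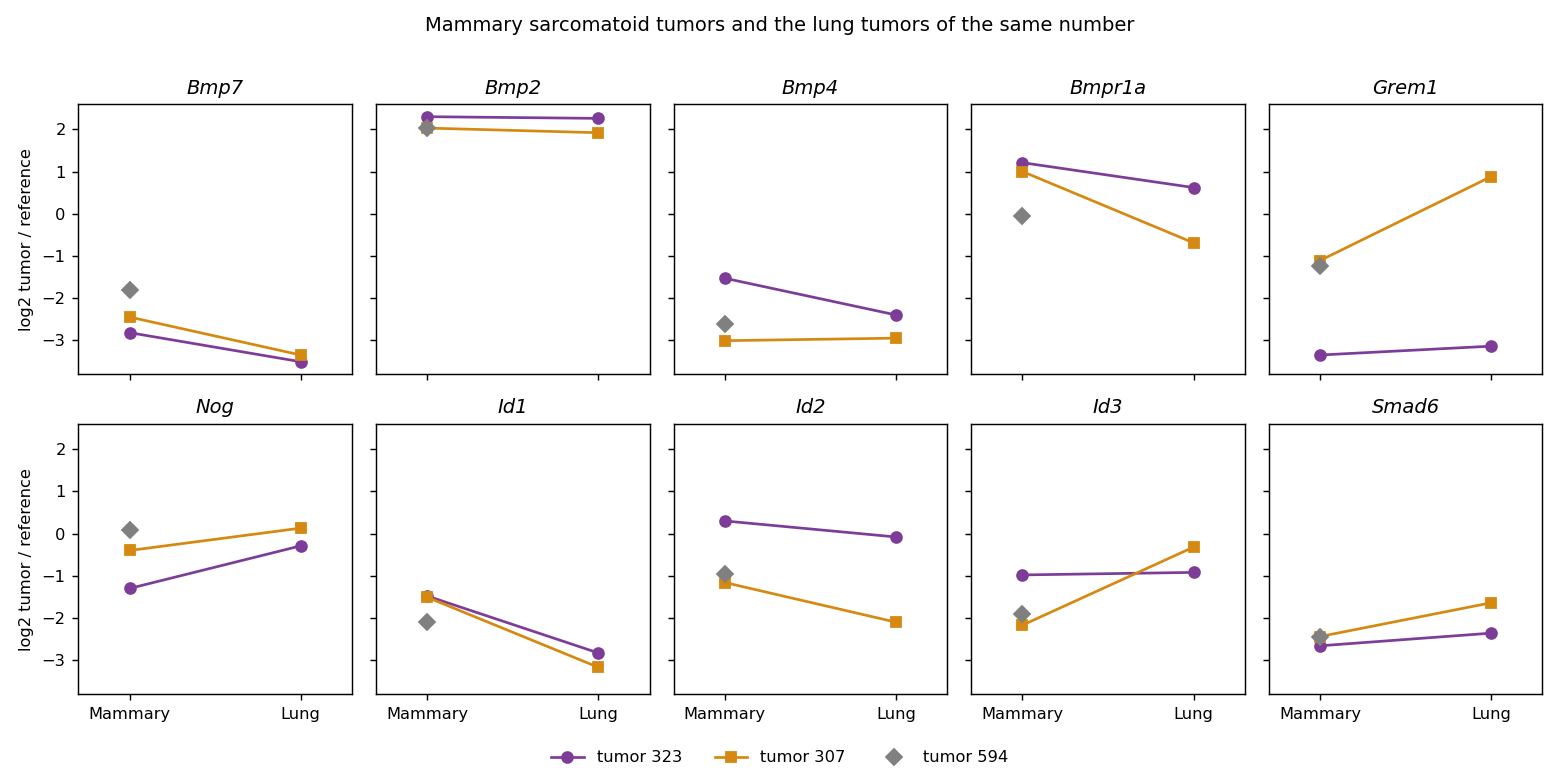
Log2 ratio of tumor over reference (y axis, the same scale in all panels) of the 10 members in the mammary sarcomatoid tumors and in the lung tumors, with lines joining tumors of the same number (323 and 307) and a diamond for tumor 594. Id1 is lower in the lung along both lines (-1.36 and -1.66), whereas Id3 and Grem1 are higher there mainly along the line of tumor 307 (1.84 and 1.99).

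Both lung arrays were read in scan batch 3 and the mammary sarcomatoid arrays in batches 1 and 2, so within the sarcomatoid group site and scan batch cannot be told apart. With scan batch as a term, fitted through the adenocarcinomas, the lung difference was -0.39 for Id1 (adjusted p = 0.977) and 1.66 for Id3 (adjusted p = 0.588). Tumor 323 was the only array of batch 1, so this fit set the lung tumors against the mammary tumors 307 and 594 only. Of 5 lung epithelium genes, at most 3 were well above background on any array, Sftpa1 and Nkx2-1 on 0 of 10. The list mean was 0.03 and 0.50 in the lung tumors 323 and 307. It was -0.16 to 0.15 in the mammary sarcomatoid tumors and -0.45 to 0.50 in the adenocarcinomas.

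The other genes of the pathway were followed by role. Of 47 listed genes 46 had a probe, and between tumor types 1 was higher and 4 were lower at an unadjusted p under 0.05, while 0 passed an adjusted one. These 5 are 10.9% of the 46 genes, near the 9.23% of all probes. Bmper, a secreted BMP modulator, was higher in the sarcomatoid carcinomas by 1.31 ± 0.50 (SE; limma, adjusted p = 0.463). The lower genes were the ligand Gdf5 (-1.12), the type II receptor Acvr2b (-1.27) and the targets Id4 (-2.24) and Hey1 (-1.65). Id4, the fourth gene of the Id family, ran from 0.48 (307 lung) to 3.87 (323 lung) in the sarcomatoid carcinomas and from 1.58 (470) to 6.70 (131) in the adenocarcinomas, and without tumor 470 its difference was -2.99 (limma, adjusted p = 0.0638). Gdf5 was -1.45 without tumor 470 and then passed (limma, adjusted p = 0.0471), as did 618 probes in all (1.54%). The median difference over the 46 genes was 0.01, beside 0 over all probes.

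By role, 6 of 10 ligands, 4 of 10 receptors and co-receptors, 2 of 6 mediators, 8 of 12 antagonists and 4 of 8 targets had higher means in the sarcomatoid carcinomas. For the mammary sarcomatoid tumors alone, Smad9 (0.94, well above background on 4 of 10 arrays) and Bmper (1.39) were higher and Acvr2b (-1.51) was lower at an unadjusted p under 0.05. They are 6.52% of the 46 genes, below the 8.6% of all probes, and 0 passed an adjusted p.

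In the lung tumors, 3 of the 46 genes were higher than in the mammary sarcomatoid tumors at an unadjusted p under 0.05 and 1 was lower, and 0 passed an adjusted p. These 4 are 8.7% of the genes, below the 10.7% of all probes. The higher ones were the ligands Bmp3 (1.77) and Gdf7 (1.56) and the target Atoh8 (1.41). Bmp3 was 3.35 in the lung tumor 307 and 0.48 in the lung tumor 323, where it was not well above background, as on 3 other arrays. Lung tumor minus primary was 0.81 for number 323 and 3.22 for number 307. The lower one was the inhibitory Smad7 (-1.29). By 1 probe per gene the 12 listed antagonists had lower means in the lung tumors, 0 of them at an unadjusted p under 0.05, where 19463 of all 40196 probes had lower means. The members Grem1 (0.77) and Nog (0.46), antagonists too, had higher means, as did the second probes of Sost (0.83) and Twsg1 (0.31), so that 15 of 19 antagonist probes in all were lower. The median over the 46 genes was -0.22, beside 0.03 over all probes.

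**Figure D5:**
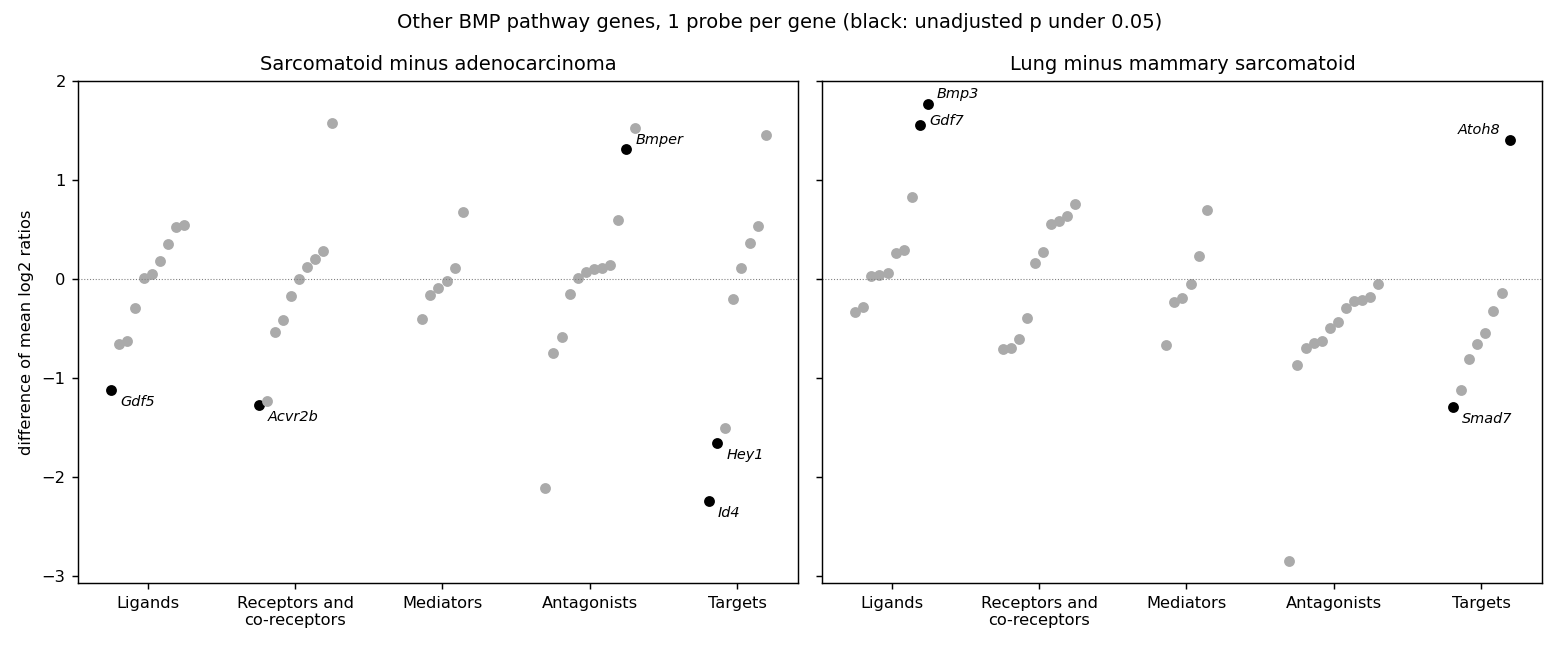
Difference of mean log2 ratios (y axis) of 46 other BMP pathway genes, 1 point per gene and grouped by role (x axis), between tumor types (left) and between lung and mammary sarcomatoid tumors (right). In the right panel the 12 antagonists shown lie below 0, from -0.05 to -2.84 (Sostdc1), none of these 12 at an unadjusted p under 0.05. Sostdc1 was not well above background in either lung tumor, nor Chrdl2 on any sarcomatoid array. The members Grem1 (0.77) and Nog (0.46) and second probes are not drawn.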

How the data were processed

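RNA of 10 mouse tumors was measured on Agilent 2-colour arrays, 1 array per tumor. The authors deposited scanner files, which give the intensity of each spot in red and green, its background and outlier flags, and a normalized table of log2 ratios; their methods name limma for normalization without the steps. Per the file headers, 3 versions of Agilent Feature Extraction were used (10.7.3.1, 11.0.1.1 and 11.5.1.1), called scan batches 1, 2 and 3. The members and lists were chosen with earlier results of these data known.

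The deposited log2 ratios were the main values, with control rows left out and spots of a probe averaged. Of 41174 non-control probes, 40196 were in the table. All were tested without a filter by limma 3.58.1 in R 4.3.3 (linear model, empirical Bayes, two-sided, Benjamini-Hochberg over all probes, threshold 0.05), with group as the only term for tumor type and with 3 groups for site. Single probes were also tested by exact permutation. The fit was tested on simulated data. Replicate numbers were given within groups in deposit order and pair nothing; tumors 323 and 307 pair a lung with a mammary tumor by number. Alternatives were the scanner intensities (normexp with offset 50, then loess or median centring, or the processed signals), a filter on dim probes, column centring, scan batch, slide, tumor number and leaving out each array.

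Each table column correlated best with its own array's red over green ratio (lowest r 0.841 and highest 0.924 over probes, but no more than 0.741 with a different array). The mean SD of the log2 signal between arrays was 0.737 in green and 0.975 in red, so green was read as the reference. Column medians ran from -0.051 to 0.067. Correlations between columns ran from 0.414 to 0.772, so none was turned. Dye direction is likely but not settled, and the deposited table's normalization steps stay unknown.

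Genes were named through the array's annotation and the RefSeq table of GRCm38.p6; an accession named 22951 of the non-control probes, a symbol 6659 more and a synonym 3109, which left 8455 without a name. Probe positions are those of mm7 in the scanner files, a different build from that of the promoter windows. Where 1 probe stands for a gene, it is the one with the highest mean tumor signal. Named were all member probes, the pathway genes at an unadjusted p under 0.05, at most 6 per direction, and the 3 genes most like Bmp7, Bmp4, Grem1 and Id1 among those well above background on at least 8 arrays. 1 gene of the pathway list is not reported here. Marker lists were epithelial, basal and myoepithelial, fibroblast and mesenchymal, endothelial, myeloid, lung epithelium, adipocyte and skeletal muscle. The number of arrays limits the precision, and p-values measure the spread between these arrays.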

Additional observations from a re-analysis of the deposited data

Results flagged for a closer look

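In tumor 470 the Bmp2 ratio was 3.36, far above the other 4 adenocarcinomas, with a gap to the nearest of them of 0.792 of the group's range. The Grem1 ratio of the same tumor was 0.53, with a gap of 0.945 of the range. From the scanner files with loess normalization the gaps were 0.651 for Bmp2, below the critical value, and 0.991 for Grem1. The reference signal of the Bmp2 probe was well above background on 0 of 10 arrays. Among 28 combinations of a member probe and a group these were the 2 that passed Dixon's 95% critical value of 0.71, where chance alone flags about 1 in 20 groups, or 1.4 here.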

How the results depend on the processing

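In no setting did any of the 14 member probes reach an adjusted p of 0.05. Of 266 alternative values of the difference between tumor types 244 kept their sign, of 252 for the difference between sites 240 did, and the 51 for Bmp7 and Smad6 in the mammary comparison all did. The values that turned are given here, and the causes were not tested. Tumor 323 was the only array of scan batch 1, so with scan batch as a term it did not enter the differences. Between tumor types, median centring of the scanner files gave -0.08 for Bmp4 and -0.13 for the first Bmpr1a probe, the processed signals -0.05 and -0.01, and scan batch as a term -0.17 and -0.22, with 0.11 for Nog. Slide as a random block gave -0.02 and 0.03 for the 2 Bmpr1a probes, and 1 value per tumor number gave -0.05 for the first. Leaving out each array in turn gave -0.20 to 0.17 for Bmp4, -0.17 to 0.30 and -0.22 to 0.17 for the Bmpr1a probes, and -0.28 to 0.12 for Nog. Between sites, median centring of the scanner files gave 0.02 for Bmp2 and 0.05 for Bmp4, column centring 0.04, slide 0.06 and scan batch 1.31 for Bmp2, and scan batch -0.23 for Smad6. Leaving out each array gave -0.20 to 0.14 for Bmp2, -0.61 to 0.13 for Bmp4, -1.24 to 2.78 for Grem1, and -1.50 to 0.53 and -1.49 to 0.30 for the Id2 probes, the positive Id2 values and the negative Grem1 value without the lung tumor 307.

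The number of probes past an adjusted p of 0.05 between tumor types was 1 with median centring of the scanner files, 2 with 1 value per tumor number and 0 to 618 on leaving out each array, highest without tumor 470, and 2 to 6 member probes then had an unadjusted p under 0.05. Between sites it was 2 with loess, 3 with median centring and 3 with the processed signals of the scanner files, 6 with column centring, 0 with scan batch and 0 to 84 on leaving out each array, with 0 to 3 member probes at an unadjusted p under 0.05. With tumor number as a replicate block, which pairs tumors 323 and 307 with their lung tumors, 0 probes passed and 0 member probes had an unadjusted p under 0.05; Id3 was then 0.95 and Id1 -1.51. In the mammary comparison it was 0 to 210, and member probes at an unadjusted p under 0.05 numbered 1 with loess, 0 with scan batch and 0 to 4 on leaving out each array. Signal over background limits Bmp2, whose reference signal was well above background on 0 of 10 arrays, against 8 to 10 for the other member probes.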
